A study of Mus musculus with 2 samples.

Results

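Voltage-gated potassium (Kv) channel genes were taken as the protein-coding genes of GENCODE vM21 on mm10 whose symbol is Kcn, 1 of the letters a, b, c, d, f, g, h, q, s or v, and a number. The rule found 40 genes of 21951 protein-coding genes. Of these, 30 encode subunits that form channels by themselves: the Kv1 (Kcna, 8 genes), Kv2 (Kcnb, 2 genes), Kv3 (Kcnc, 4 genes), Kv4 (Kcnd, 3 genes), Kv7 (Kcnq, 5 genes) and Kv10 to Kv12 (Kcnh, 8 genes) subfamilies. The other 10 encode electrically silent subunits of the Kv5 (Kcnf, 1 gene), Kv6 (Kcng, 4 genes), Kv8 (Kcnv, 2 genes) and Kv9 (Kcns, 3 genes) subfamilies. Kcnd1 lies on the X chromosome, and the others lie on autosomes.

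Accessible chromatin was measured in frontal cortex of male B6CASTF1/J mice, an F1 hybrid strain, aged 10 days, by DNase-seq, which sequences the sites that the enzyme DNase I cuts in nuclei. The labels give 1 group of 2 biological replicates and no treatment, so no conditions could be compared, and the Kv genes were set beside all protein-coding genes as a description. A note gives 3 males for each sample without stating pooling, and the donor entry of the samples is identical. Separate animals are thus not stated, and the libraries may differ for technical reasons alone.

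Kv channels open when the membrane is depolarised and let potassium leave the cell. In cortical neurons they set the firing threshold, end the action potential and limit repetitive firing. Each channel is a tetramer, and silent subunits enter tetramers with Kv2 subunits and alter their currents. Several neuronal subfamilies are known to rise in expression during the first weeks after birth, when cortical action potentials become brief.

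A promoter peak was a deposited peak that touched the window of 1 kb around any annotated transcription start site (TSS) of the gene. The span was the gene body plus 10 kb upstream. Peak strength was the authors' cleavage density, a read-depth normalised signal, given with its percentile among the peaks of the same library. There were 39608 main peaks in replicate 1 and 45915 in replicate 2, and the steps between densities put replicate 2 at 1.64 times the depth of replicate 1. As a check of the tissue, promoter peaks were present in both libraries at 6 of 6 neuronal marker genes and 0 of 6 liver genes. Counts were 2 of 6 astrocyte, 4 of 6 oligodendrocyte precursor, 1 of 6 microglial and 2 of 6 endothelial markers. The share over all protein-coding genes was 55.1%. In the smaller read-derived lists, described below, the share was 57.9%. There the counts were 6 neuronal, 0 liver, 4 astrocyte, 4 oligodendrocyte precursor, 0 microglial and 2 endothelial genes, each of 6.

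The sequences below come from peaks found in both libraries at some of these genes. They were read from the RefSeq GRCm38.p6 genome (mm10 coordinates) and are written 5′ to 3′ on the strand of the gene, with exonic bases of coding genes cut away. Capitals mark bases inside footprints, short stretches protected from cleavage, that were found in both libraries. The first 5 are promoter peaks of conducting subfamilies, chosen among the peaks that held such a footprint.
Kcna3 promoter, chr3:107035761-107036060, plus strand: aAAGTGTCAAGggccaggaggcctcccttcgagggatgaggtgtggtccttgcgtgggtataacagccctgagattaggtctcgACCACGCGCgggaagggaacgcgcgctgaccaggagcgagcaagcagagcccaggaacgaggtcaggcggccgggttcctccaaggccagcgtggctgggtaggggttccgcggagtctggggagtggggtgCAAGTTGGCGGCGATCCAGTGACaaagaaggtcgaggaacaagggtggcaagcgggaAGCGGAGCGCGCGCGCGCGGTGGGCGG
Kcnc1 promoter, chr7:46396321-46396496, plus strand: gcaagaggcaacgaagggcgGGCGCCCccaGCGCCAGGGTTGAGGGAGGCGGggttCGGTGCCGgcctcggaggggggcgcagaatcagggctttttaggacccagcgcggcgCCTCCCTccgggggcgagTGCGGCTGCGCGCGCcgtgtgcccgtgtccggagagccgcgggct
Kcnd1 promoter, chrX:7822081-7822288, plus strand: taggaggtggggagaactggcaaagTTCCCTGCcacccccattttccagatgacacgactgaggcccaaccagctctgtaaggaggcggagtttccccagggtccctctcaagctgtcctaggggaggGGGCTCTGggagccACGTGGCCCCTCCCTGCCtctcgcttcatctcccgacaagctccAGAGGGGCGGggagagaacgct
Kcnq3 promoter, chr15:66286681-66286960, minus strand: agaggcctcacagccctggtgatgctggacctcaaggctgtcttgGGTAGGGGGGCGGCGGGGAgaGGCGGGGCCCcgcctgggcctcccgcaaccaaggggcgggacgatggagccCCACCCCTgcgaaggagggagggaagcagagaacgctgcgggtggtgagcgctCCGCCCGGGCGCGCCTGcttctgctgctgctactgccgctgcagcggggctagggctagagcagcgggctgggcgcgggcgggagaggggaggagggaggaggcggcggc
Kcnh4 promoter, chr11:100759943-100760140, minus strand: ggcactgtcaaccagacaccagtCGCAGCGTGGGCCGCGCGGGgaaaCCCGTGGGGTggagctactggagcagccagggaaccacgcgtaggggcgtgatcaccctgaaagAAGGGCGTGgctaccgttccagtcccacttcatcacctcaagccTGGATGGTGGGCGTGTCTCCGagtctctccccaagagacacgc
Another 4 come from shared intronic peaks far from the promoters of the genes that hold them.
Kcnb2 intron, chr1:15483541-15483820, plus strand: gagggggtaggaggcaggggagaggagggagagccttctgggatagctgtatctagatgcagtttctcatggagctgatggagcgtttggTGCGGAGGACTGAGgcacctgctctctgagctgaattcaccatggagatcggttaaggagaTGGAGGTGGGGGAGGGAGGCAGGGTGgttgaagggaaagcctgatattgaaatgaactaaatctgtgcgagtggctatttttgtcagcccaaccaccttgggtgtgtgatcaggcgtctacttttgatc
Kcnq3 intron, chr15:66239241-66239540, minus strand: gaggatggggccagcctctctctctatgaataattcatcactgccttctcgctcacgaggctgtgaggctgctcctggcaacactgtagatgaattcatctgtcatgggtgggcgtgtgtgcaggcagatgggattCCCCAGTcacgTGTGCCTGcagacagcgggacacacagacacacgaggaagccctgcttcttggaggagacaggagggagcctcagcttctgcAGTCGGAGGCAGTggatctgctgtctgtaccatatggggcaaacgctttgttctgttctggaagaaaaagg
Kcnd3 intron, chr3:105530781-105531080, plus strand: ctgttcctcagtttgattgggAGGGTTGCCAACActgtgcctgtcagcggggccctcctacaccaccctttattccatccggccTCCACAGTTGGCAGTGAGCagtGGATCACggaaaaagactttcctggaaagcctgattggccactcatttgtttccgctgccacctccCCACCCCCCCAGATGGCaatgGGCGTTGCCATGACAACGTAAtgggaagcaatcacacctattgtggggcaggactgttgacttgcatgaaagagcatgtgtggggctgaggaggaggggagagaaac
Kcnq1 intron, chr7:143296501-143296740, plus strand: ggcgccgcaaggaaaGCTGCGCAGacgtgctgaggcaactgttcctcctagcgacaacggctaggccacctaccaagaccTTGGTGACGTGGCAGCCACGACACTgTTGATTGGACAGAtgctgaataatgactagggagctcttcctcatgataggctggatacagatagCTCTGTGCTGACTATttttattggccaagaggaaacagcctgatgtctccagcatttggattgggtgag

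Both libraries had a promoter peak at 26 of the 40 Kv genes and at 55.1% of all protein-coding genes. Counts per library were 28 Kv genes in replicate 1 (57.7% of all genes) and 27 in replicate 2 (56.9% of all genes). The conducting subunits had such a peak at 22 of 30 genes and the silent subunits at 4 of 10 in these main lists. The silent count was 6 of 10 in the other deposited peak lists described below. Both Kv2 genes and all 3 Kv4 genes were open in this sense, as were 7 of 8 Kv10 to Kv12 genes, 5 of 8 Kv1 genes, 3 of 4 Kv3 genes and 2 of 5 Kv7 genes. Among the silent subunits, 2 of 3 Kv9 genes, 1 of 2 Kv8 genes, 1 of 4 Kv6 genes and 0 of 1 Kv5 genes were open.

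**Figure D1:**
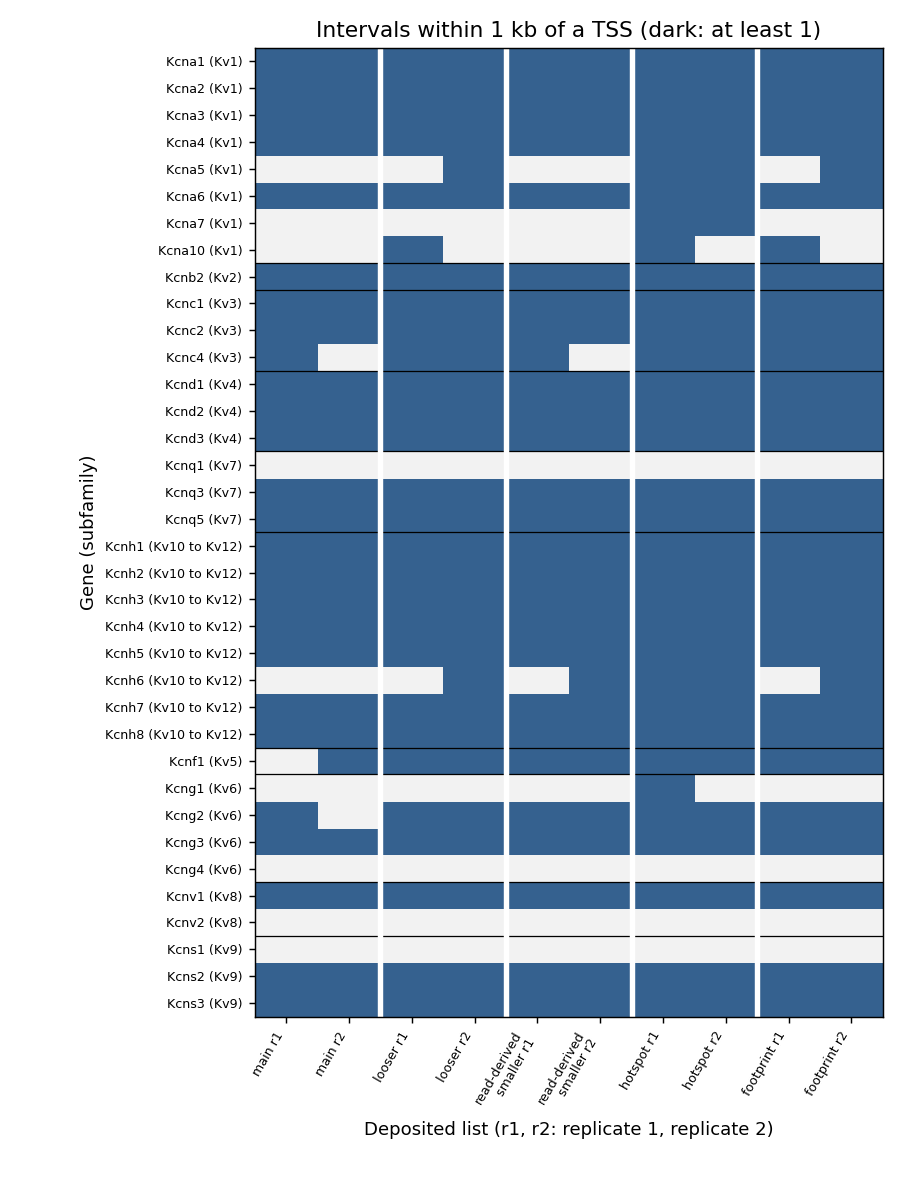
Presence of at least 1 interval within 1 kb of a TSS (dark) for 36 Kv genes, in rows by subfamily, and 5 kinds of deposited list from each of the 2 libraries, in columns; the larger read-derived lists are not drawn. The 24 of them with a promoter peak in both main lists are dark in all 10 columns. Kcng4, Kcnq1, Kcnv2 and Kcns1 are empty in all of them.

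The open Kv promoters had low densities, and nearly all lay under the median of open genes. The strongest promoter peak of the 26 open Kv genes had a median density of 1.56 in replicate 1 and 1.24 in replicate 2, against 4.30 and 2.80 over all 12088 open genes. As percentiles of the peak lists, the medians were 53.0 in replicate 1 and 61.1 in replicate 2 for Kv genes, against 84.3 and 85.8 for all open genes. The median of all open genes was reached by 1 of 26 Kv genes in replicate 1 and by 2 of 26, Kcnh4 among them, in replicate 2. In bulk tissue a weak peak in many cells and a strong peak in few cells cannot be told apart.

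**Figure D2:**
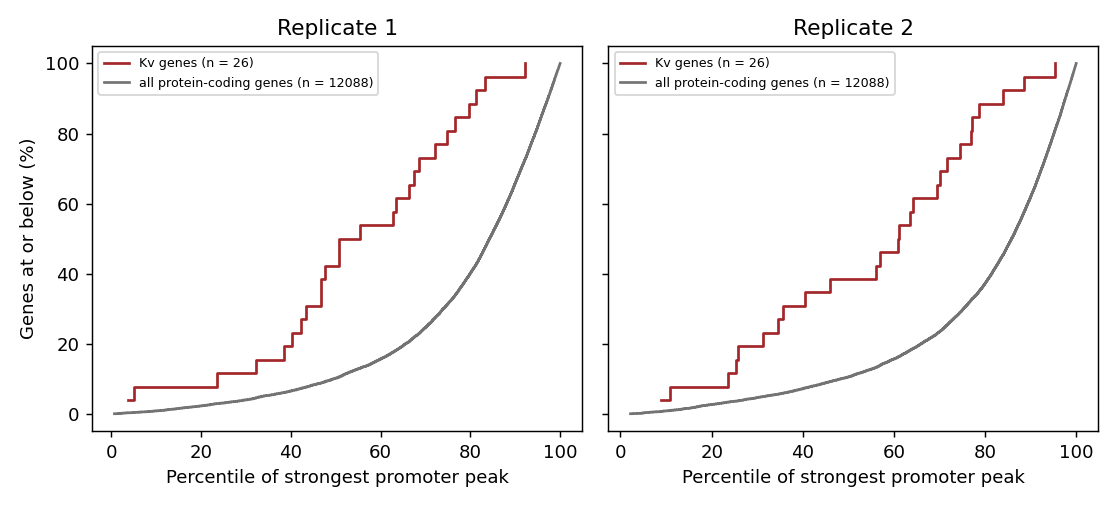
Cumulative percentage of genes (y axis) at or below each percentile of promoter peak strength (x axis) for the 26 open Kv genes and all 12088 open protein-coding genes, with 1 panel per library. The Kv curve lies to the left of the curve of all genes in both panels, with medians of 53.0 against 84.3 and 61.1 against 85.8.

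Many open Kv genes had several promoter peaks, counted together over the windows of all TSSs of a gene. The number of TSSs per gene was not matched between Kv genes and all open genes. At least 2 promoter peaks shared between the libraries, that is replicate 1 peaks overlapping a replicate 2 peak by at least 1 bp, were present at 15 of the 26 open Kv genes and at 34.7% of all open genes. At least 3 were present at 5 of 26, which were Kcna1, Kcna3, Kcnc1, Kcnq5 and Kcnv1, and at 10.2% of all open genes. Neighbouring peaks of 1 list overlapped each other at 3 places in the replicate 1 spans, so a count of peaks is not always a count of separate sites.

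The order of the 26 Kv genes by strength was alike in the libraries, with Spearman's rho of 0.847 over the percentiles (n = 26 genes, all measured in the same 2 libraries). The median difference between a gene's percentiles in the libraries was 8.59 points for Kv genes and 2.12 points for all open genes. All open genes lay nearer the top of this bounded scale, with medians of 84.3 and 85.8, so the differences cannot be compared directly. Kcns3 differed most, with a percentile of 40.2 in replicate 1 and 8.81 in replicate 2. Kcna1 differed most in the other direction, with 46.8 in replicate 1 and 74.5 in replicate 2.

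**Figure D3:**
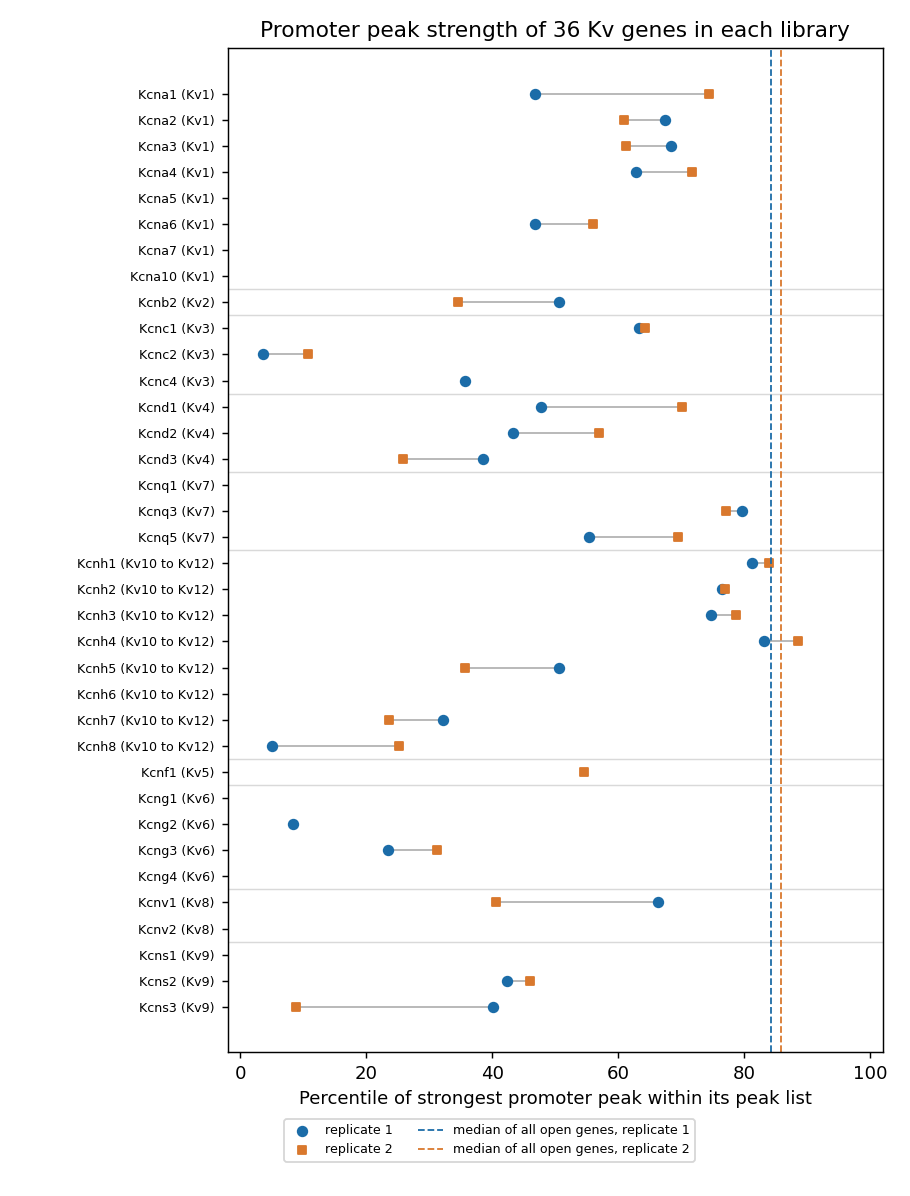
Percentile of the strongest promoter peak within its peak list (x axis) for 36 Kv genes (y axis, by subfamily), as circles for replicate 1 and squares for replicate 2. Dashed lines are the medians of all open genes, 84.3 and 85.8. Kcnh4 lies beyond the line of replicate 2, and genes without a symbol had no promoter peak in that library.

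Kv1 genes encode low-threshold channels of axons and presynaptic terminals. Kcna3, best known from T lymphocytes, had the highest Kv1 density in replicate 1 with 2.24 and had 1.24 in replicate 2. Kcna4, an A-type subunit that inactivates rapidly, had 1.93 in replicate 1 and 1.59 in replicate 2 and the highest mean percentile of the subfamily. Kcna6 had the lowest mean percentile, with densities of 1.39 and 1.13. Kcna2, a partner of Kcna1 in axons, had 2.18 and 1.24, and Kcna1, whose human mutations cause episodic ataxia, had 1.39 and 1.73. These 5 genes thus lay in a narrow range, all under the medians of open genes. The 3 Kv1 genes without a promoter peak, Kcna5, Kcna7 and Kcna10, are known from heart, from skeletal muscle, and from kidney and inner ear.

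Of the 5 open Kv1 genes, 4 lie in clusters with a closed one, and Kcna4 lies on chromosome 2 with no other Kv1 gene beside it. On chromosome 3 Kcna3, Kcna2 and Kcna10 follow each other with gaps of 63.1 and 68.1 kb, and Kcna10 was the closed one. On chromosome 6 Kcna5, Kcna1 and Kcna6 follow each other with gaps of 105 and 61.9 kb, and Kcna5 was the closed one. In both clusters the closed gene stood at the end of the row, next to an open one.

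Kv2 subunits carry the main delayed rectifier current of neuronal cell bodies and dendrites. Kcnb2 had promoter densities of 1.48 in replicate 1 and 0.790 in replicate 2.

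Kv3 channels close fast and allow rapid firing, as in parvalbumin interneurons. Kcnc1 had densities of 1.95 and 1.32, with 3 shared promoter peaks. Kcnc2 had the lowest mean percentile of the open genes, with densities of 0.531 in replicate 1 and 0.487 in replicate 2. Its peaks lay at different TSSs in the libraries, 841 bp upstream of the first start in replicate 1 and 10 bp upstream of an internal start in replicate 2, and did not overlap. Kcnc4, an A-type Kv3 subunit, had a promoter peak in replicate 1 alone, with a density of 1.15.

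Kv4 subunits form A-type channels of dendrites that hold back backpropagating action potentials. Kcnd1 had 1.41 in replicate 1 and 1.53 in replicate 2, Kcnd2 had 1.30 and 1.15, and Kcnd3 had 1.20 and 0.685. Kcnd1 was the strongest and Kcnd3 the weakest by mean percentile.

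Neuronal Kv7 subunits carry the M current, which muscarinic receptors shut to raise excitability, and Kcnq3 is a main subunit of it. Kcnq3 had a promoter density of 3.43 in replicate 1 and 1.90 in replicate 2, with percentiles of 79.7 and 77.1. Kcnq5 had percentiles of 55.4 and 69.5. Kcnq1, known from heart and inner ear, had no peak within 1 kb of any TSS in either main list.

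The Kv10 to Kv12 subfamilies comprise the EAG (Kcnh1, Kcnh5), ERG (Kcnh2, Kcnh6, Kcnh7) and ELK (Kcnh3, Kcnh4, Kcnh8) channels. Kcnh4 had the highest density of these, with 4.07 in replicate 1 and 3.31 in replicate 2. Kcnh1, linked to human developmental syndromes, had 3.69 and 2.53. Kcnh2, the cardiac ERG channel gene that also acts in neurons, had 2.98 and 1.88, and Kcnh3 had 2.76 and 2.01. The 4 genes named so far had the highest promoter densities of the subfamily in both libraries. Kcnh5 had 1.48 and 0.804, Kcnh7 had 1.08 and 0.659, and Kcnh8 had 0.574 and 0.678, the lowest mean percentile. Each of the channel types thus held genes of unlike strength. Kcnh6 was the closed member, with no peak in its span.

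Among the silent subunits the open promoters were weaker still, with median percentiles of 41.3 in replicate 1 and 35.9 in replicate 2 over 4 genes, against 59.1 and 63.9 over the 22 open conducting genes. Kcnv1 had densities of 2.11 in replicate 1 and 0.869 in replicate 2. Kcns2 had 1.28 and 0.948, Kcns3 had 1.23 and 0.454, and Kcng3 had 0.931 and 0.751. Only Kcnv1 passed a density of 2 in a library. Kcnf1 had a promoter peak in replicate 2 alone, with a density of 1.09, and Kcng2 in replicate 1 alone, with 0.661.

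Promoter peaks in 1 library alone were found at 3 of 40 Kv genes (Kcnc4, Kcnf1 and Kcng2) and at 4.48% of all genes. The lowest per-base false discovery rate (FDR) at the Kcnc4 promoter was 0.000189 in replicate 1 and 0.0341 in replicate 2. At Kcng2 it was 0.000330 and 0.00193, and at Kcnf1 it was 0.000647 and 2.16e-06. All 3 promoters had a hotspot, a wider region of enriched cleavage, in both libraries and a peak in both looser lists.

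Of the 40 Kv genes, 11 had no promoter peak in either main list, and those described here fell into classes by the other lists. Kcng4, Kcnv2 and Kcns1 had no hotspot, no footprint and no base under an FDR of 0.05. Kcnq1 had no hotspot or footprint and had lowest FDR values of 0.0236 in replicate 1 and 0.0463 in replicate 2. Kcna7 had weak hotspots of 1.75 and 1.60 (−log10 FDR) and no footprint, and Kcng1 had a hotspot of 1.68 in replicate 1 alone. These 6 genes showed the least signal. Kcna5 and Kcnh6 had hotspots in both libraries, 2.21 and 3.02 at Kcna5 and 2.80 and 3.32 at Kcnh6. Each of them had 3 footprints in replicate 2 and none in replicate 1, with lowest FDR values in replicate 2 of 0.00427 and 0.00214. Kcna10 had 1 footprint, a hotspot of 2.26 and a lowest FDR of 0.0129 in replicate 1 alone.

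The count of open Kv genes moved with the list. The looser lists gave 29 genes (61.2% of all genes), the smaller lists that the authors derived from reads 29 (57.9%) and the larger ones 32 (60.6%). In the same order, conducting subunits had 23, 23 and 26 of 30 genes, and silent subunits had 6 of 10 in each. Kcnf1 and Kcng2 were gained in each of these, Kcnc4 in the looser and the larger read-derived lists, and Kcna5 and Kcnh6 in the larger read-derived lists alone.

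By hotspots, 33 of 40 Kv promoters were marked in both libraries, and 63.3% of all genes were. All Kv2, Kv3, Kv4 and Kv10 to Kv12 promoters were marked. The hotspots of the 26 open genes had a median −log10 FDR at their highest base of 11.0 in replicate 1 and 8.81 in replicate 2, against 30.7 and 25.3 over all open genes. Hotspots and peaks did not rank the genes alike in every case. The highest value of an open Kv promoter, 33.5 in replicate 1 and 41.9 in replicate 2, was at Kcnh8, the Kcnh gene with the lowest mean percentile of peak strength. That hotspot reaches into the window from a stronger peak 1508 bp upstream of the start, with densities of 2.34 and 2.07, whereas the hotspot over the start itself had 6.88 and 11.98.

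A promoter footprint found in both libraries was present at 25 of 40 Kv genes and at 56.9% of all genes. At least 1 promoter footprint was present at 30 Kv genes in replicate 1 (61.5% of all genes) and at 32 in replicate 2 (62.0%). Those with a footprint found in both were 25 of the 26 open genes, and the exception was Kcnh8. Kv promoter windows held 249 footprints in replicate 1 and 307 in replicate 2, and 112 of the 249 in replicate 1, 45.0%, overlapped one of replicate 2. Over all genes 63.0% did. Kcnc1 had the most, with 18 footprints in replicate 1, 23 in replicate 2 and 10 found in both. Kcnd3 had 1 found in both of 15 in replicate 1. A higher peak density did not always go with a higher share found in both. Kcnh1, with a density of 3.69 in replicate 1, had 2 of 6 found in both, and Kcnd1, with 1.41, had 4 of 4.

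Spans of the Kv genes had a median length of 39.2 kb, against 27.4 kb for all genes. At least 1 shared peak in the span was found at 34 of 40 Kv genes and at 64.1% of all genes. No peak in either library was found at 4 of 40, namely Kcna5, Kcnh6, Kcng1 and Kcng4, and at 30.2% of all genes. The median number of shared peaks per 10 kb was 0.270 for Kv genes and 0.208 for all genes. This order turned round with the stricter list, to 0.152 for Kv genes and 0.171 for all genes, and with 50% reciprocal overlap, to 0.152 and 0.158. Replicate 1 alone gave 0.418 for Kv genes and 0.262 for all genes, and replicate 2 alone 0.386 and 0.289. Pooled over all bases the order was the other way, 0.179 for Kv genes and 0.226 for all genes, and the long spans weigh most in it. The median of the short Kv1 genes (16.9 kb) was 0.634, and that of the long Kv10 to Kv12 genes (166 kb) was 0.116.

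In total the spans held 120 peaks in replicate 1 and 131 in replicate 2, and 92 of the replicate 1 peaks were shared. Of these 92, 45 were promoter peaks of 25 genes, 30 lay in introns of 13 genes, 6 in exons of 5 genes and 11 upstream of 11 genes. Beyond 20 kb from any TSS of the same gene lay 27 shared peaks in 11 genes. Only 2 of the 47 peaks outside promoters had their midpoint within 1 kb of a TSS of another gene.

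**Figure D4:**
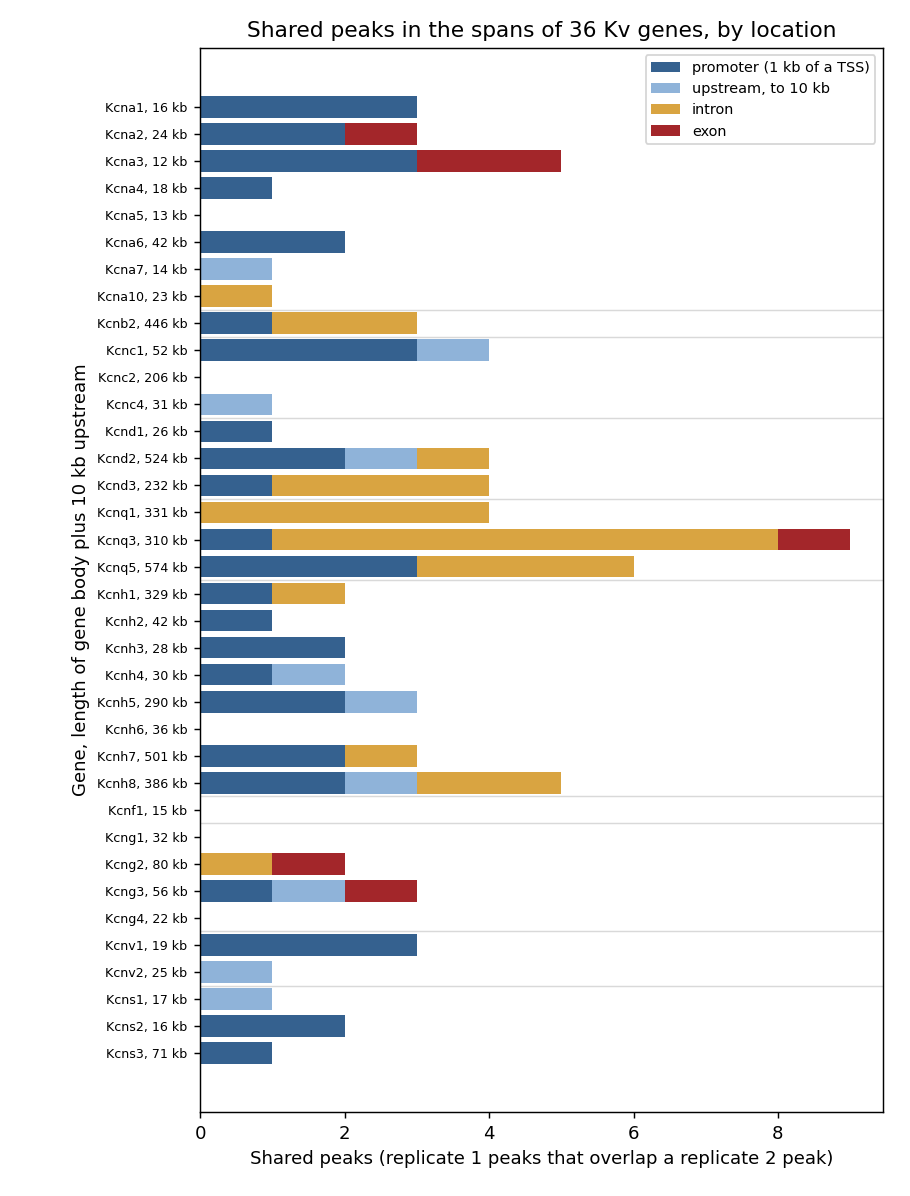
Number of shared peaks in the span of each Kv gene (bars, by subfamily, with span lengths beside the names), split into promoter, upstream, intronic and exonic peaks. Kcnq3 has the most with 9, mostly intronic, while the bars of the short Kv1 genes are mostly promoter peaks.

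Kcnq3 had the most shared peaks, 9, with 9 peaks in its span in replicate 1 and 12 in replicate 2. Kcnq5 had 6, with 7 and 10 peaks per library. Kcna3 and Kcnh8 had 5 each, with 5 and 6 peaks at Kcna3, and 6 and 5 at Kcnh8. The span of Kcna3 was 11.9 kb and that of Kcnh8 386 kb. Per 10 kb, Kcna3 led with 4.20 shared peaks, before Kcna1 with 1.88, Kcnv1 with 1.61, Kcna2 with 1.26 and Kcns2 with 1.25. All 5 of these have spans under 24 kb. Kcnc1, Kcnd2, Kcnd3 and Kcnq1 had 4 shared peaks each. The exonic peaks lay in Kcna2, Kcna3, Kcnq3, Kcng2 and Kcng3.

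The strongest peak outside a promoter within any Kv span was the one 9822 bp upstream of Kcna7, with densities of 22.8 in replicate 1 and 14.7 in replicate 2. It lies 89 bp from a TSS of Snrnp70, a spliceosome gene, and Kcna7 had no other peak. Several intronic peaks, whose sequences are given above, had higher densities than the promoter of the gene that holds them. In Kcnq3 a peak 46660 bp from the nearest start had 5.20 in replicate 1 and 3.89 in replicate 2, above the promoter. In Kcnd3 a peak 72149 bp from the nearest start had 2.61 and 2.69. It was also higher than the promoter peak of the gene in both libraries, and it held 5 footprints found in both. In Kcnb2 a peak 171229 bp from the nearest start had 1.62 and 1.48. Kcnq5 had an intronic peak of 3.54 and 1.98 at 444161 bp from the nearest start.

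In Kcnq1 the intronic peak had 4.74 in replicate 1 and 4.00 in replicate 2 and lay 72 bp from the start of Kcnq1ot1, the imprinted antisense RNA that runs through Kcnq1. This accessible internal start of the antisense gene was 187427 bp from the nearest Kcnq1 TSS, and the Kcnq1 promoters were closed. Of the 11 genes without a promoter peak, 7 had a shared peak elsewhere in the span, among them Kcna7, Kcnq1, Kcna10, Kcns1 and Kcnv2. The Kcns1 peak lay 4087 bp upstream with 1.51 and 1.60, the Kcna10 peak in an intron with 1.18 and 0.915, and the Kcnv2 peak upstream with 0.671 and 0.724. Kcns1 encodes a silent subunit known from sensory neurons and Kcnv2 one known from photoreceptors. Among open genes, upstream of Kcnh4 a peak 1979 bp from the start had 3.57 and 1.53. In replicate 1 its midpoint lay 1007 bp from a start of Hcrt, the orexin gene, and its near edge within 1 kb.

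**Figure D5:**
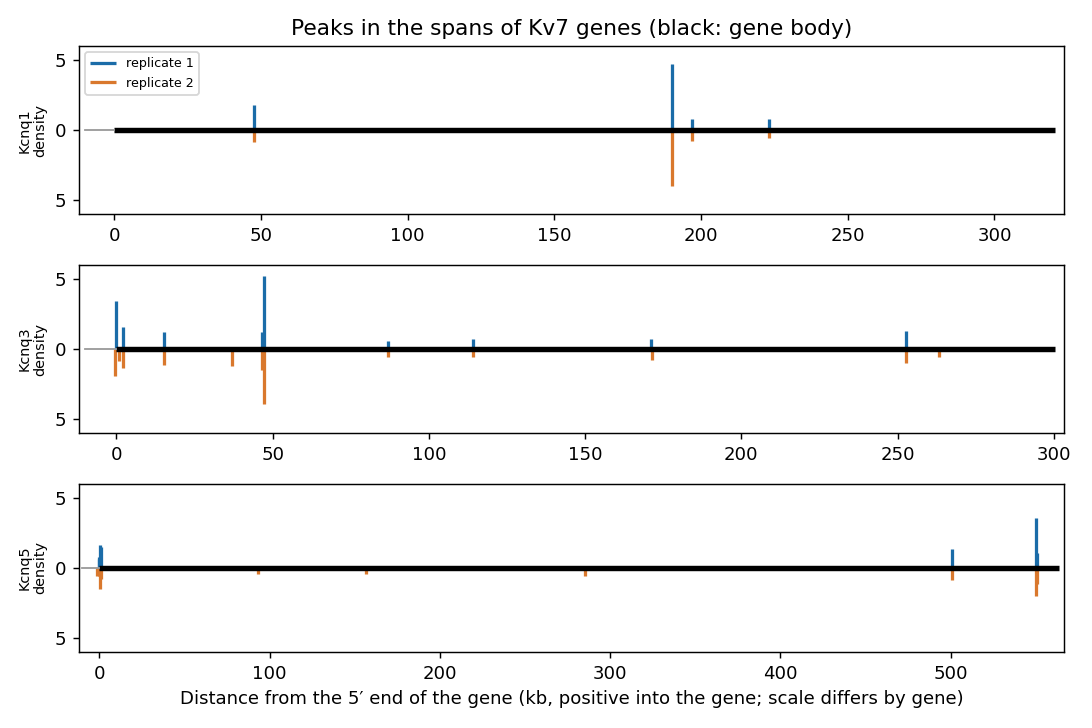
Peaks in the spans of Kcnq1, Kcnq3 and Kcnq5 by distance from the 5′ end of the gene (x axis, kb, a scale of its own for each gene) with cleavage density (y axis) upward for replicate 1 and downward for replicate 2. Kcnq3 and Kcnq5 have peaks at the 5′ end and inside the gene, and Kcnq1 has internal peaks and none at the 5′ end.

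Some Kv promoters were shared with noncoding genes. A TSS of a noncoding gene lay within 1 kb of a shared promoter peak of Kcnh8 (Gm27217), Kcnq3 (Gm27242) and Kcnd3 (Kcnd3os), among others. At the 25 Kv genes with a shared promoter peak, no other protein-coding gene started within 1 kb of such a peak. The remaining Kv genes were not examined for this.

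Base composition was measured in windows of 200 bp at the midpoints of shared peaks. The 45 Kv promoter windows had a median GC content of 66.5%, against 65.5% in all 16004 promoter windows, and a median CpG ratio (observed over expected) of 0.668, against 0.808. The GC box GGGCGG, bound by SP and KLF factors, was present in 42.2% of Kv promoter windows and 57.0% of all. The ETS core CCGGAA was in 6.67% and 20.3%, and the CRE half-site TGACG in 8.89% and 25.8%. Motifs were searched on both strands. The GC content of Kv promoter windows was thus within 1 point of that of all promoter windows, while these 3 motifs were in fewer of them. Peaks of the same promoter are not independent. The NRF1 motif, GCGC repeated after 2 bases, was in 8.89% of Kv windows and 11.1% of all, and in the Kcna3 sequence above its 2 matches, which overlap each other, touch capitals. The Kcnc1 promoter sequence holds a GC box that touches capitals. These Kcna3 and Kcnc1 matches lie outside the windows of 200 bp, so the percentages do not count them.

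The remaining searches of promoter windows were the E-box CAGATG, in 11.1% of Kv windows and 6.87% of all, the EGR motif GNGTGGGNG, in 15.6% and 13.6%, and the RFX half-site GTTGCC, in 8.89% and 10.4%. The AP-1 site TGANTCA, the TATA box TATAAA and the NFI palindrome, TTGGC and GCCAA 5 bases apart, were in 0 of 45 Kv windows, against 2.50%, 2.03% and 0.0312% of all. With 45 windows, 1 window is 2.22%, so most of these differences rest on few peaks.

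The RE1 element, bound by REST, a repressor of neuronal genes in other cell types, was searched as CAGNACC followed, after 2 bases, by GGNNAG. It was found in 1 of 45 Kv promoter windows and in 0.262% of all promoter windows.

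The 47 Kv peaks outside promoters lay outside those of their own gene. The 15718 distal windows lay outside promoters of any protein-coding gene, so the sets differ slightly in rule. The E-box CAGATG, of the NeuroD type, was in 31.9% of these Kv windows, 15 of 47, and in 23.8% of all distal windows. The RFX half-site GTTGCC was in 21.3%, 10 of 47, and 12.9%. Some of these Kv windows lie in the same gene. The intronic Kcnd3 sequence above holds 1 such E-box and 2 RFX half-sites, all touching capitals. AP-1 was in 8.51% of the Kv windows and 7.50% of all distal windows. The GC box was in 6.38% of these Kv windows and 14.0% of all distal windows.

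The core of the CTCF motif, CCANNAG followed after 2 bases by GGC, was searched after the sequences had been seen. It was in 17.0% of Kv windows outside promoters, 8 of 47, and in 14.8% of all distal windows, and at promoters in 2.22% and 3.29%. CTCF is a factor that anchors chromatin loops. In 6 of the 8 peaks a footprint of each library lay on the match, and 3 of these lie in the 10 kb upstream of Kcnc1, Kcnc4 and Kcnd2. The motif was picked from sequences with footprints marked, so footprints on its matches were partly built in. The same share over all distal matches was not computed. Matches are given for 5 of the 6 on the strand of the motif, with the core in capitals.
Kcnc1 upstream, chr7:46393321-46393338, plus strand: ccgCCACAAGATGGCagt
Kcnc4 upstream, chr3:107466768-107466785, minus strand: cagCCACCAGGTGGCagg
Kcnd2 upstream, chr6:21214002-21214019, minus strand: tggCCACTAGATGGCggg
Kcnq3 intron, chr15:66034078-66034095, plus strand: taaCCAGCAGGGGGCagc
Kcnq5 intron, chr1:21461274-21461291, plus strand: cagCCACCAGGAGGCgcc
For Kcnc4 this upstream peak, with densities of 1.84 in replicate 1 and 1.15 in replicate 2, was the only shared peak of the span.

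Auxiliary subunits were counted by the same rule, under which the share of all genes open in both was 55.1%. All 3 Kv beta genes (Kcnab1, Kcnab2 and Kcnab3), cytoplasmic partners of Kv1, had a promoter peak in both libraries. Of the 6 KChIP and DPP genes, partners of Kv4, 4 did, and Kcnip1 and Kcnip2 did not. None of the 5 KCNE genes did, that is 0 of Kcne1, Kcne2, Kcne3, Kcne4 and Kcne1l. Of 8 genes that place Kv channels on the membrane, 6 did, and Amigo1, a Kv2 partner, and Cntn2, an axonal adhesion protein, did not. In the smaller read-derived lists, where 57.9% of all genes had one, the counts were 3 of 3 Kv beta genes, 5 of 6 KChIP and DPP genes, 1 of 5 KCNE genes and 7 of 8 membrane placement genes.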

How the data were processed

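The samples were 2 DNase-seq libraries, biological replicates of 1 group, and each was analysed from interval lists made per library by the authors. The value of a deposited peak is its cleavage density, a signal that the authors scaled to read depth. Per the deposited text lists, the main and looser lists came from filtered alignments, and the read-derived lists and hotspots from reads. The deposited hotspots carry the highest −log10 FDR of each hotspot. The deposited footprint lists hold 0.01 in every line of their p-value column, a threshold and not a value per footprint, and the authors' per-base track holds bases with an FDR p-value under 0.05. No aligner, caller, version or threshold is given in the sources used here. Every peak of the main lists holds a base with FDR under 0.001 and every peak of the looser lists one under 0.05, which was read from that track. The stricter setting kept main peaks with a base at 0.0001 or lower.

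Each library's densities came in whole steps of a fixed size, within 0.05 of a step. Absolute depth is unknown, so no counting intervals are given. Reads of an F1 hybrid aligned to 1 reference genome can favour that allele, which was not examined. Chromosome lengths fitted RefSeq GRCm38.p6, which supplied sequence, and GENCODE vM21 supplied genes. Overlaps of at least 1 bp were computed with Python 3.11.15, numpy 2.4.6 and pandas 2.3.3, plots with matplotlib 3.10.9, and the procedures were tested on simulated data. No test was made, since there is 1 group and genes are not replicates.

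Named genes followed a rule: the open genes of each subfamily with the highest and lowest mean percentile, the 5 with the most shared peaks and the 5 with the most per 10 kb, every gene with a promoter peak in 1 library, closed genes, and members of the partner lists without a promoter peak in both. A few Kv genes are not reported by name here and enter only the counts, and gene-level plots show 36 of the 40. Other genes are named to fill out counts, chosen after their values were seen. The Kv genes and the lists were chosen with earlier results of these data known. Alternatives were other peak lists, overlaps, windows, spans, TSS sets and single libraries.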

Additional observations from a re-analysis of the deposited data

How the results depend on the processing

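The count of Kv genes open in both libraries, 26, stayed between 21 and 32 in every setting tried. With 50% reciprocal overlap it was 21, without Kcnc2, Kcnd3, Kcnh7, Kcnq3 and Kcns3. The stricter list gave 24 (without Kcnc2 and Kcns2) and equal list size 24 (without Kcnc2 and Kcns3). The looser list gave 29, adding Kcnc4, Kcnf1 and Kcng2, and the smaller read-derived list 29, with Kcnf1 and Kcng2 among those added. The larger read-derived list gave 32, with Kcna5, Kcnc4 and Kcnh6 also added. Requiring the promoter peaks to overlap, a setting chosen after seeing the data, gave 25, without Kcnc2. The hotspot count of 33 ranged from 32 to 35, and the footprint count of 25 from 22 to 32. The share of all genes with a promoter peak was recomputed for the looser and read-derived lists and single libraries alone. For footprints it was recomputed for single libraries alone, and for hotspots in no other setting. In the remaining settings these counts thus have no share of all genes to be set beside.

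The median number of shared peaks per 10 kb, 0.270, depended most on the list. It was 0.152 with the stricter list, 0.152 with 50% reciprocal overlap, 0.145 for the gene body alone, 0.436 with the smaller read-derived list, 0.554 with the looser list and 0.658 with the larger read-derived list. Leaving out 1 library, which drops the need for a match, gave 0.386 to 0.418. It was 0.264 with 50 kb on each side and 0.270 with equal list size. Over these 10 settings the median of Kv genes was above that of all genes in 8 and below it in 2, the stricter list and 50% reciprocal overlap. No paired analysis was possible because the labels give a single group.

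With 2 libraries of unknown absolute depth, a promoter without a peak had none detectable at this depth, which does not show that it was closed in every cell.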
